A study of Mus musculus with 18 samples.

Results

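The genes described here are 9 genes of the two-cell stage: the Zscan4 copies Zscan4a, Zscan4b, Zscan4c, Zscan4d, Zscan4e and Zscan4f, the zinc finger gene Zfp352, and the two-cell transcript variants Tcstv1 and Tcstv3. They were found by symbol among 24505 RefSeq entries of a gene table. Of the 9 listed, 8 were found, all but Zscan4e, and 6 were above 0 in any library: 5 Zscan4 copies and Zfp352. RNA had been sequenced from E14Tg2A cells, a line of mouse embryonic stem cells, in 18 libraries, 3 for each of 6 groups. Daxx-null cells (labelled Daxx Knockout) and their wild-type parent were each grown in 3 cultures. In the retinoic acid culture, cells were kept for 24 h without leukaemia inhibitory factor (LIF) and then for 4 days with 10 µM retinoic acid, still without LIF, which starts neural differentiation. In 2i, cells were held in the ground state by inhibitors of GSK3 and MEK with LIF and 100 µg/mL vitamin C in a medium without serum. In serum, the usual stem cell medium, cells had fetal bovine serum and 1000 units/mL LIF. The labels name a single Daxx-null line without its number of clones or the deleted part of the gene, so any other difference between the lines is confounded with loss of Daxx. What separated the replicates is not said in the labels, and p-values therefore cover the spread among these libraries, which may be technical.

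Zscan4 genes form a cluster of near-identical copies that encode DNA-binding proteins with a SCAN domain and zinc fingers. They are switched on in the late two-cell embryo, and in stem cell cultures they are on in a small fraction of cells at a time. Some of these cells also transcribe the retrovirus MERVL. Zscan4 is known for telomere lengthening and genome stability in stem cells, the transcription factor Dux is a known activator of the two-cell genes, and Daxx is a chaperone that places the histone variant H3.3 with Atrx.

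In the coordinates of the files (mm9), all 5 measured Zscan4 copies lie on chromosome 7: Zscan4a (NR_033707, 11379590 to 11384414, minus strand), Zscan4b (NM_001185173, 11486089 to 11490399, minus), Zscan4c (NM_001013765, 11591094 to 11595896, plus), Zscan4d (NM_001100186, 11746992 to 11751497, minus) and Zscan4f (NM_001110316, 11983264 to 11987667, plus). Zscan4c, Zscan4d and Zscan4f are known to encode the full-length protein, Zscan4b a shorter one, and Zscan4a carries an accession of a non-coding transcript. Zfp352 (NM_153102, chromosome 4, 89885511 to 89892378, plus) encodes a zinc finger protein of the early embryo. A promoter window, from 250 bases before to 50 after the start in RefSeq (GRCm38.p6), was held for 5 of the 9 genes. Between the 4 Zscan4 windows, local alignments of 266 to 300 columns were 95.3 to 99.3% identical. The stretches below run from 10 bases before a Dux-type match to 10 bases after a TATA match and are shown because they hold what the copies share. Capitals mark these matches, and each stretch is written 5′ to 3′ on the strand of its gene.
Zscan4b (chr7:10905066-10905151, minus): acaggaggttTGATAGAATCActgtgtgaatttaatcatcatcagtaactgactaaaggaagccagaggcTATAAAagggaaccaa
Zscan4c (chr7:11005621-11005706, plus): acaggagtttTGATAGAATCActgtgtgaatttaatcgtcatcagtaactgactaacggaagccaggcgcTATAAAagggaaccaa
Zscan4d (chr7:11166198-11166283, minus): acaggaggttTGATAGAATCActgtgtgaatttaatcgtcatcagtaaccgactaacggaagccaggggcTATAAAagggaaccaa
Zscan4f (chr7:11397814-11397899, plus): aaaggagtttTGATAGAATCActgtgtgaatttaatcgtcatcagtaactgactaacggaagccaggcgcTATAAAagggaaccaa

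The Dux-type motif searched was TGATT and ATCA with any 2 bases between them, and the TATA motif was TATAAA, each on both strands and not overlapping each other in these windows. In each of the 4 Zscan4 windows the Dux-type motif matched 1 time, on the strand opposite to the gene, as TGATAGAATCA. It occurred in 0.207% of 32851 promoter windows (68 windows), and TATAAA in 13.6%. Both occurred together in 18 windows, 4 of them of Zscan4 copies. The Zscan4-type motif TGCACAC, held by 4.4% of windows, matched none of the 5 members' windows. None of the 33 other two-cell genes with a window held the Dux-type motif. The Zfp352 window looked different: the search for TAATCC, chosen after the sequence was seen, gave 9 matches in a tandem repeat. These letters are the core recognised by homeodomain factors of the Otx type, 7.06% of windows held at least 1, and no other window held as many as 9. The 250 bases before the Zfp352 start follow, with capitals on the TAATCC matches (either strand).
Zfp352 (chr4:90218570-90218819, plus): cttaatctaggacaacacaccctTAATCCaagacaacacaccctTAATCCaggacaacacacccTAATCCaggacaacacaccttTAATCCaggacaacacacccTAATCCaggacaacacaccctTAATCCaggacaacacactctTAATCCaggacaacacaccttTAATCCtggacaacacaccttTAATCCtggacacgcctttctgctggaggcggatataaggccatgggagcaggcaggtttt

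The transcripts of the copies are as alike as the promoters, which bears on what a value of 1 copy means. In GENCODE vM21, the Zscan4 transcripts were 94.1 to 97.9% identical to each other in local alignments. Of all 50-base windows of a transcript, 50.4% occurred in no other gene for Zscan4d, 36.4% for Zscan4a, 14.5% for Zscan4c, 7.51% for Zscan4b and 4.66% for Zscan4f, against 92.9% for Zfp352. The sources used here give neither the read length nor the handling of reads that match several places. The division of reads among copies is therefore uncertain, and the sum over the 5 copies is given beside them. Tcstv1 (NM_018756, chrUn_random, 37343 to 38736) and Tcstv3 (NM_153523, chrUn_random, 3053 to 4452) were listed at 0 in all 18 libraries. All 63 entries on sequences named random were listed at 0 throughout, whereas 22133 of the 24442 other entries were above 0, so the files say nothing of Tcstv expression.

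Values are FPKM as the authors scaled them, by inference about 10 times a conventional FPKM, at recovered depths of 84.2 to 141.7 M counting units (1 M is 1000000). Daxx was lower in every Daxx-null library: its mean FPKM was 61.7 against 248 in retinoic acid, 56.0 against 420 in 2i and 71.5 against 326 in serum (Daxx-null against wild type). Retinoic acid libraries held the neural and retinoic acid response markers, with summed FPKM of 2348 to 2619 in Daxx-null and 2728 to 3015 in wild-type libraries. In the other cultures the sum was 403 to 1730 FPKM. Pou5f1, the stem cell factor Oct4, was at 1918 to 11171 FPKM in 2i and serum against 2.84 to 73.9 FPKM after retinoic acid. Daxx-null 2i replicate 2 stood apart, with Pou5f1 at 1918 FPKM, against 5198 and 4250 FPKM in the other Daxx-null 2i libraries. Its sum of the neural and retinoic acid response markers was 1730 FPKM, against 403 and 424. Tubb3 made up most of that sum, at 1204 FPKM (213 and 164 in the others). By mean, Tubb3 in wild-type cells was lower after retinoic acid (298 FPKM) than in serum (449) or 2i (502). Pax6 (33.0 FPKM) and Sox1 (42.9 FPKM) were near their Daxx-null serum means (32.7 and 49.9). Each of the summed markers was still highest in replicate 2 among the Daxx-null 2i libraries. Summed RNA of 3 Y-linked genes was 1.20 to 2.59 FPKM in Daxx-null and 155.5 to 165 FPKM in wild-type retinoic acid libraries, 173 to 236 against 313 to 349 FPKM in 2i, and 2.18 to 2.68 against 157 to 258 FPKM in serum. Near loss of Y-linked RNA thus goes with the Daxx-null label in retinoic acid and serum but not in 2i, and its part in any difference between Daxx-null and wild-type cells, or between cultures in that difference, was not tested.

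The summed Zscan4 level was lowest in Daxx-null cells after retinoic acid and, by mean, highest in Daxx-null cells in 2i. Without Daxx-null 2i replicate 2 the mean of that group was 47.0 FPKM, below wild-type retinoic acid. The sum in replicates 1, 2 and 3 was 6.57, 6.72 and 6.16 FPKM in Daxx-null and 45.3, 42.6 and 65.3 FPKM in wild-type retinoic acid libraries. In 2i it was 46.5, 96.0 and 47.5 FPKM in Daxx-null and 27.8, 33.1 and 12.4 FPKM in wild-type libraries. In serum it was 27.8, 50.4 and 48.3 FPKM in Daxx-null and 37.9, 44.5 and 14.4 FPKM in wild-type libraries. By mean, the order from high to low was Daxx-null 2i (63.3 ± 28.3), wild-type retinoic acid (51.1 ± 12.4), Daxx-null serum (42.2 ± 12.5), wild-type serum (32.3 ± 15.8), wild-type 2i (24.5 ± 10.7) and Daxx-null retinoic acid (6.48 ± 0.29; SD, n = 3 each). Neighbours in this order overlapped in their libraries, except wild-type 2i and Daxx-null retinoic acid. In bulk RNA, fewer Zscan4-positive cells and less Zscan4 RNA per cell cannot be told apart.

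**Figure D1:**
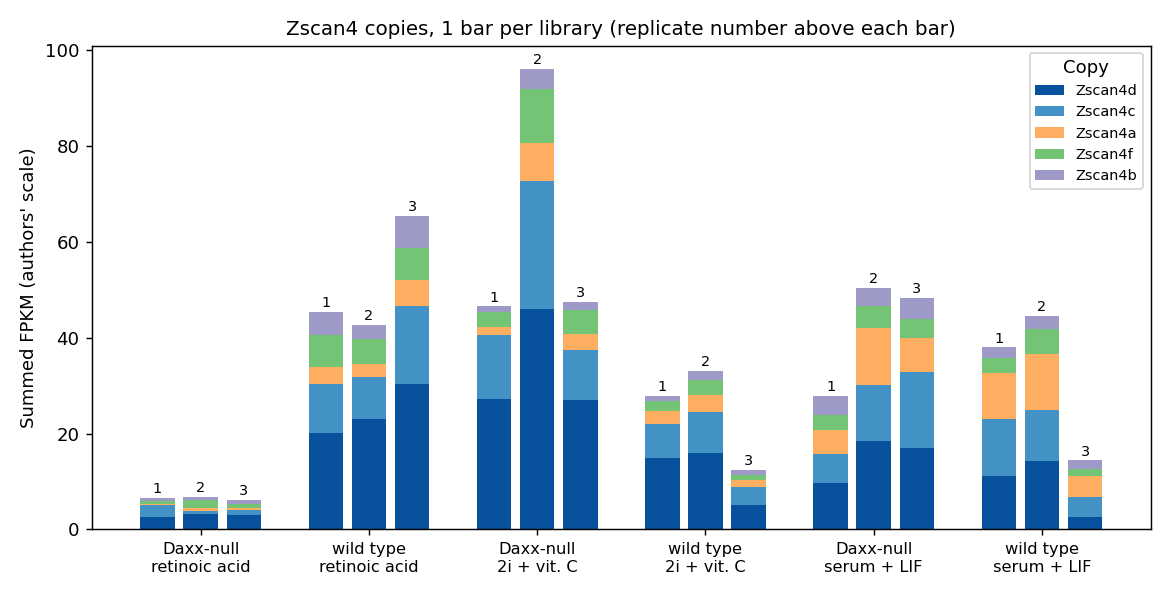
FPKM of the 5 measured Zscan4 copies stacked to their sum (y axis, authors' scale), 1 bar per library, grouped by genotype and culture (x axis). The 3 Daxx-null retinoic acid bars lie between 6.16 and 6.72, below every other library, and Daxx-null 2i replicate 2 is the highest bar at 96.0.

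After retinoic acid, every measured Zscan4 copy was lower in Daxx-null than in wild-type cells, and the sum was at 12.7% of wild type, 7.88-fold lower (log2 ratio of the means -2.98, -3.09 to -2.76 when 1 library was left out). Zscan4d, the copy known from the two-cell embryo, had 2.67, 3.13 and 2.94 FPKM in Daxx-null libraries and 20.2, 23.1 and 30.2 in wild-type libraries. Zscan4c, the copy known as the main one of stem cells, had 2.45, 0.750 and 1.21 FPKM in Daxx-null libraries, against 10.2, 8.83 and 16.3 in wild-type libraries. The groups did not overlap for either gene, and wild-type replicate 3 was the highest library for both. The log2 fold change (Daxx-null over wild type) was -2.85 (SE 0.50, adjusted p = 0.0044) for Zscan4d and -2.69 (SE 0.47, adjusted p = 0.0043) for Zscan4c in limma, adjusted over all 18002 genes tested.

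The other copies had lower levels and moved the same way. Zscan4f had 0.762, 1.58 and 0.870 FPKM in Daxx-null and 6.60, 5.26 and 6.77 FPKM in wild-type libraries (log2 -2.12, adjusted p = 0.0124). Zscan4b had 0.546, 0.635 and 0.824 FPKM in Daxx-null and 4.87, 2.87 and 6.59 FPKM in wild-type libraries (log2 -2.12, adjusted p = 0.0022). Zscan4a had 0.154, 0.624 and 0.320 FPKM in Daxx-null and 3.47, 2.57 and 5.4 FPKM in wild-type libraries (log2 -2.30, adjusted p = 0.0189). The Daxx-null values of Zscan4a rest on 4, 19 and 10 counting units. In all, 5 of the 6 genes tested were lower and 0 higher, against 2.27% of all tested genes called lower and 0.222% called higher. All 5 had every Daxx-null library below every wild-type library, which held for 17.7% of all tested genes. Zscan4a and Zscan4f lost their calls, leaving 3, when Daxx-null replicate 1 or 3 or wild-type replicate 1 or 3 was left out (adjusted p = 0.0501 to 0.115 in limma).

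Zfp352 did not follow the copies after retinoic acid, with 0.615, 0.590 and 0.128 FPKM in Daxx-null and 0.457, 0.907 and 0.661 FPKM in wild-type libraries. The groups overlapped (log2 -0.34, SE 0.34, adjusted p = 0.80), and its Daxx-null values rest on 16, 18 and 4 counting units. Some stem cell markers were lower together with the Zscan4 copies. Pou5f1 had 2.84, 3.30 and 3.75 FPKM in Daxx-null and 13.8, 18.6 and 73.9 FPKM in wild-type retinoic acid libraries, Zfp42 had 10.3 to 11.2 against 32.5 to 45.6, and Nanog 0.786 to 1.67 against 2.66 to 5.58. The sum of all 5 stem cell markers, of which Sox2 made up most, was 530 to 900 FPKM in Daxx-null and 557 to 616 FPKM in wild-type libraries, and Esrrb overlapped. The 4 primitive endoderm markers summed to 273 to 339 FPKM in Daxx-null and 478 to 847 FPKM in wild-type libraries, and the 4 fibroblast markers to 69.4 to 113 against 146 to 191 FPKM, both without overlap. Of single tested genes, 17.7% were apart in this direction. Among the fibroblast markers only the collagen genes Col1a1 and Col1a2 were apart. Thy1 (means 12.9 in Daxx-null and 9.72 FPKM in wild-type cells) and Pdgfrb (22.5 and 25.1) overlapped. The 4 trophoblast markers overlapped, at 622 to 994 against 708 to 770 FPKM. The 7 neural and retinoic acid response markers summed to 2348 to 2619 against 2728 to 3015 FPKM, without overlap. Of these 7 only Cyp26a1 was apart (means 923 in Daxx-null and 1496 FPKM in wild-type cells). Tubb3 was higher in Daxx-null cells by mean (460 against 298 FPKM) but overlapped. The part of remaining undifferentiated cells, endoderm cells, fibroblasts or the retinoic acid response in the Zscan4 difference was not tested.

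**Figure D2:**
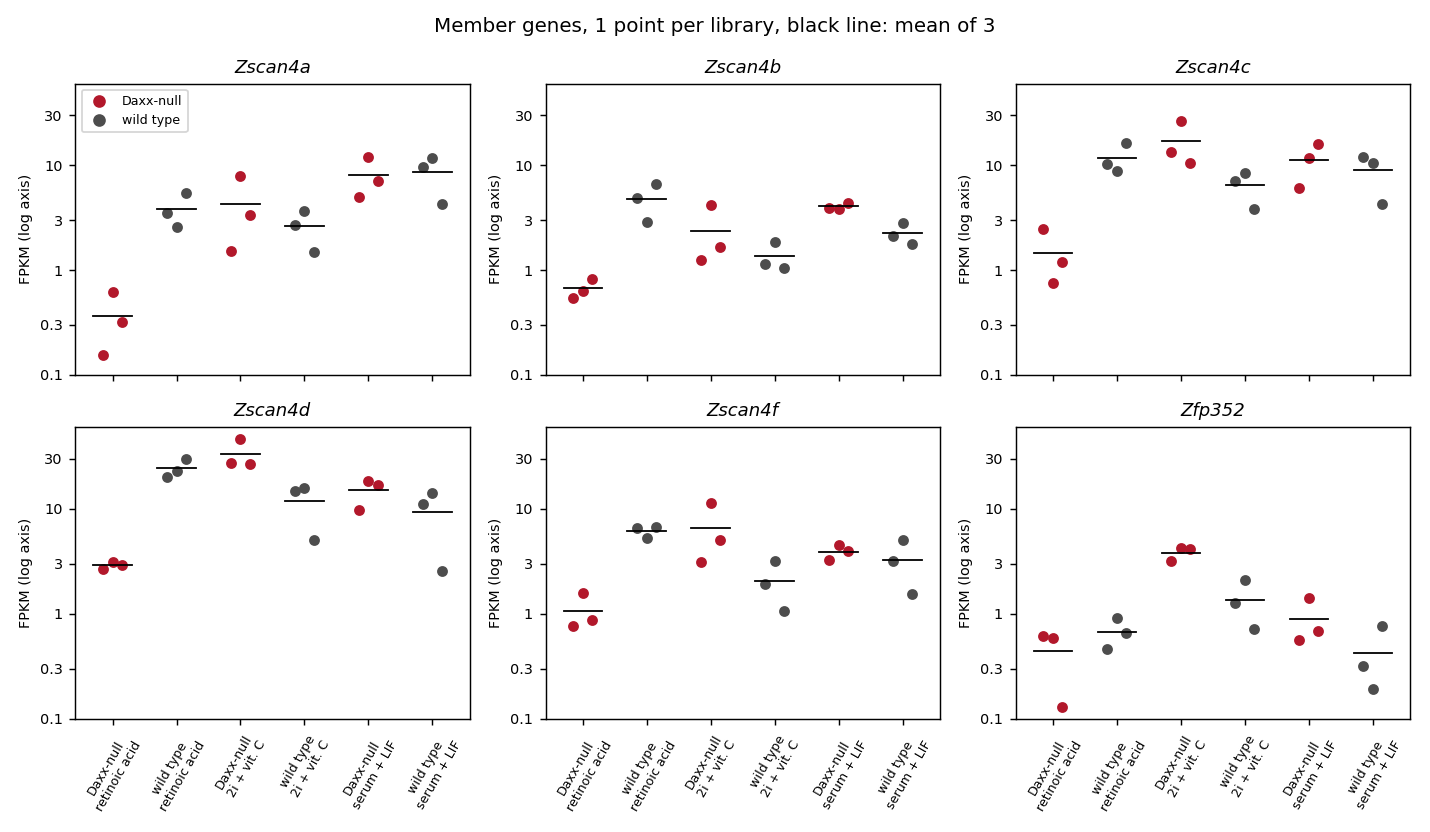
FPKM of the 6 measured genes on a log axis (y) in the 6 groups (x), 1 point per library with the mean of 3 as a black line; Daxx-null in red, wild type in grey. Daxx-null retinoic acid points lie below the wild-type ones for the 5 Zscan4 copies but not for Zfp352, whose highest points are the Daxx-null 2i libraries.

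In 2i the sign was opposite. The Zscan4 sum was 2.59-fold higher in Daxx-null than in wild-type cells (log2 ratio of the means 1.37, 0.94 to 1.65 when 1 library was left out). Without Daxx-null replicate 2 and wild-type replicate 3 it was 1.54-fold higher (0.62). Zscan4d had 27.1, 46.0 and 26.9 FPKM in Daxx-null and 15.0, 16.0 and 5.02 FPKM in wild-type libraries (log2 1.55, SE 0.50, adjusted p = 0.0195 in limma). Zscan4c had 13.5, 26.6 and 10.4 FPKM in Daxx-null and 7.09, 8.49 and 3.81 FPKM in wild-type libraries (log2 1.27, adjusted p = 0.0374). The groups were apart for both copies, as they were for 32.3% of all tested genes in this direction, with Daxx-null replicate 2 high and wild-type replicate 3 low. Zscan4f had 3.09, 11.3 and 5.09 FPKM in Daxx-null against 1.93, 3.17 and 1.06 FPKM in wild-type libraries, which overlapped (log2 1.36, adjusted p = 0.0172).

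Zfp352 reached its highest level in these cells, with 3.20, 4.19 and 4.11 FPKM in Daxx-null and 1.26, 2.08 and 0.721 FPKM in wild-type 2i libraries (log2 1.28, SE 0.34, adjusted p = 0.0061). Its Daxx-null 2i values exceeded every other library of the study. Zscan4a (log2 0.44, adjusted p = 0.48) and Zscan4b (0.52, adjusted p = 0.23) had overlapping groups and were not called. Thus 4 of the 6 tested genes were higher and 0 lower, in a comparison in which 31.5% of all tested genes were called higher and 15.3% lower. These calls rest on 2 libraries: without Daxx-null replicate 2, or without wild-type replicate 3, Zfp352 alone was called, and without both none was, with Zscan4d at 0.79 (adjusted p = 0.25) and Zfp352 at 0.95 (adjusted p = 0.059). They also rest on the scaling, since after quantile normalization, which moved the median log2 fold change of all genes to -0.03, against 0.20 as deposited, 1 gene was called. Marker sums set all 3 Daxx-null 2i libraries apart from the wild-type ones: stem cell markers 7343 to 14450 against 18020 to 19383 FPKM, primitive endoderm markers 217 to 318 against 37.3 to 89.2 FPKM, and trophoblast markers 745 to 809 against 355 to 418 FPKM. The keratin gene Krt18 made up most of the trophoblast gap, with means of 413 against 40.2 FPKM. Tfap2c was at 345 against 346 FPKM, and the low Cdx2 at 18.1 against 8.43 FPKM. Daxx-null replicate 2 also had the high neural sum, most of it Tubb3, and a fibroblast sum of 254 FPKM. Col1a1 (129.5 FPKM) and Col1a2 (96.6 FPKM) made up most of that fibroblast sum, with Thy1 at 14.1 and Pdgfrb at 13.7 FPKM. The part of other cells in the Zscan4 difference was not tested.

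In serum, Daxx-null and wild-type cells overlapped for Zscan4a, Zscan4c, Zscan4d, Zscan4f and Zfp352. Zscan4d had 9.67, 18.4 and 17.0 FPKM in Daxx-null and 11.1, 14.3 and 2.55 FPKM in wild-type libraries (log2 0.90, SE 0.50, adjusted p = 0.20 in limma). Zscan4b had 3.9, 3.85 and 4.39 FPKM in Daxx-null and 2.11, 2.81 and 1.79 FPKM in wild-type libraries, with no overlap (log2 0.75, SE 0.35, adjusted p = 0.12); 19.1% of all tested genes were apart in this direction. Zscan4a had 4.93, 12 and 7.12 FPKM in Daxx-null and 9.59, 11.8 and 4.31 FPKM in wild-type libraries (log2 -0.07). None of the 6 tested genes was called by limma, against 9.29% of all genes called higher and 18.9% called lower, and Zscan4b was the 1 gene at an unadjusted p under 0.05 (0.0457). After quantile normalization 3 were called higher and in the authors' deposited normalised log2 values 2 were.

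**Figure D3:**
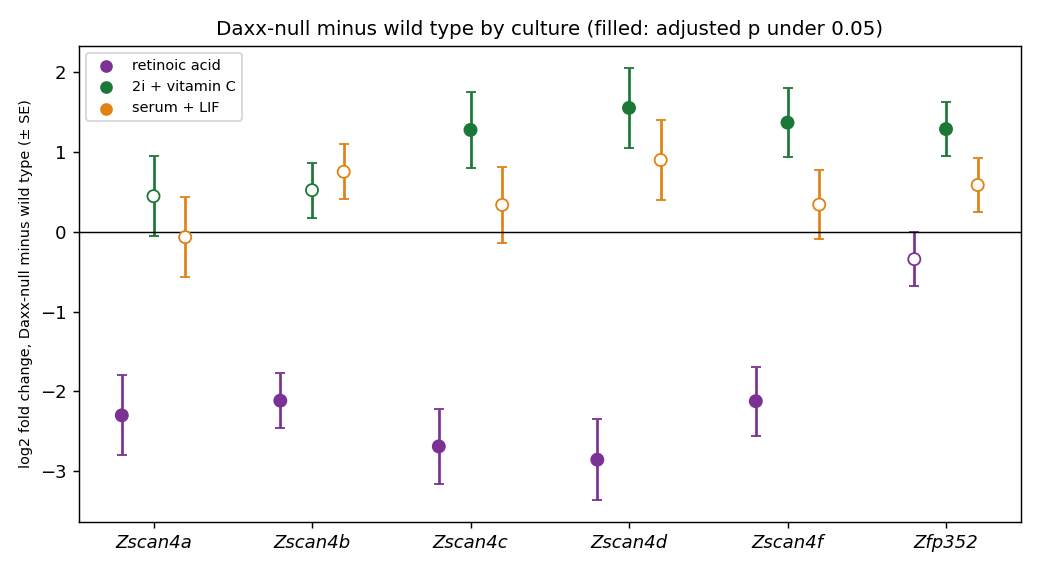
Log2 fold change of Daxx-null minus wild type (y, points, bars show 1 SE from limma) for the 6 measured genes (x) in retinoic acid, 2i and serum; filled points have an adjusted p under 0.05. The 5 Zscan4 copies lie between -2.12 and -2.85 in retinoic acid and between 0.44 and 1.55 in 2i.

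The Daxx effect (log2 of Daxx-null over wild type) was itself compared between cultures. It was lower in retinoic acid than in serum for Zscan4d (log2 difference of effects -3.75, SE 0.71, adjusted p = 0.0048), Zscan4c (-3.02, adjusted p = 0.0115), Zscan4b (-2.86, adjusted p = 0.0025) and Zscan4f (-2.46, adjusted p = 0.0223). Zscan4a (-2.23, adjusted p = 0.063) and Zfp352 (-0.93, adjusted p = 0.27) did not pass, so 4 of 6 were called lower and 0 higher, against 3.38 and 4.82% of all tested genes. Between retinoic acid and 2i, a comparison added after the values were seen, all 6 were lower, from -1.63 for Zfp352 (adjusted p = 0.0167) to -4.4 for Zscan4d (adjusted p = 3.8e-04), where 25.4% of all tested genes were called lower and 9.25% higher. With quantile normalization or the normalised table Zscan4a (-1.36 and -1.16) and Zfp352 (-0.48 and -0.43) were not called, and Zfp352 was also lost (-1.30, adjusted p = 0.053) without Daxx-null 2i replicate 2 and wild-type 2i replicate 3. Between 2i and serum none of the 6 was called by limma, and none had an unadjusted p under 0.05, against 43.1% of all tested genes called either way. The larger values in 2i than in serum were thus not shown to differ. The comparisons of effects that share a culture share its libraries.

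Within a genotype, the cultures ordered the genes differently. In wild-type cells, Zscan4d had 24.5 ± 5.19 FPKM after retinoic acid and 9.30 ± 6.06 in serum (SD, n = 3 each; log2 1.61, adjusted p = 0.0105), and Zscan4b had 4.77 ± 1.86 and 2.23 ± 0.522 (0.90, adjusted p = 0.0317). These 2 of 6 were higher and 0 lower after retinoic acid, against 30.4 and 34.1% of all tested genes. Zscan4b lost its call without wild-type retinoic acid replicate 1 or 3 or wild-type serum replicate 1. Without wild-type serum replicate 3 neither was called, and Zscan4a was called lower instead (-1.42, adjusted p = 0.0297). In wild-type 2i against serum, Zfp352 was higher (1.35 ± 0.681 against 0.424 ± 0.301 FPKM; 0.99, adjusted p = 0.0251) and Zscan4a lower (2.61 ± 1.07 against 8.57 ± 3.86 FPKM; -1.50, adjusted p = 0.0203), where 24.7% of all tested genes were called higher and 24.8% lower. Leaving out wild-type serum replicate 1 or 2 ended both calls, and leaving out any 1 wild-type 2i library ended 1 of them.

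In Daxx-null cells after retinoic acid, all 5 measured Zscan4 copies were lower than in serum, from 0.366 ± 0.238 against 8.02 ± 3.62 FPKM for Zscan4a (log2 -3.25, adjusted p = 2.8e-05) to 1.07 ± 0.446 against 3.91 ± 0.636 FPKM for Zscan4f (-1.51, adjusted p = 0.0059). In the comparison as a whole 33.1% of tested genes were called lower and 33% higher, and Zfp352 was not called (-0.55, adjusted p = 0.17). In Daxx-null 2i against serum, Zfp352 was called higher (3.83 ± 0.55 against 0.885 ± 0.452 FPKM; 1.69, adjusted p = 4.5e-04) and no other gene of the 6 was, where 41.8% of all tested genes were called higher and 21.8% lower. After quantile normalization Zfp352 lost its call (0.53, adjusted p = 0.16), while Zscan4a (-2.11) and Zscan4b (-2.02) were called lower. Zscan4d was apart between these groups as deposited (33.3 ± 10.9 against 15.0 ± 4.69 FPKM; 1.13, adjusted p = 0.062), as were 43% of all tested genes in this direction. Daxx-null 2i and serum cells also differ in Y-linked RNA, and the part of this in the contrast was not tested.

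The make-up of the Zscan4 sum also differed by culture, given here as a description because reads can be divided wrongly among copies. Zscan4d made up 44.9% of the sum in Daxx-null and 48.3% in wild-type retinoic acid cells, and 54.3 and 47.4% in Daxx-null and wild-type 2i cells. In serum its mean share was 35.5% in Daxx-null cells and 26.3% in wild-type cells. Zscan4a went the other way, with mean serum shares of 18.8% (Daxx-null) and 27.2% (wild type), against 5.61 to 10.9% in the 4 other groups. In single libraries Zscan4a made up 14.7 to 29.9% in serum and 2.34 to 12% elsewhere, without overlap. Each of these copies has a larger share of windows of its own than Zscan4b, Zscan4c or Zscan4f.

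Across the 18 libraries, log2 values of the Zscan4 copies moved together, with Pearson r of 0.60 (Zscan4a with Zscan4d) to 0.90 (Zscan4d with Zscan4f), and 0.52 to 0.93 after group means were removed. These are descriptions over libraries that share depth and scaling, and the copies share reads. Zfp352 moved less with them, at 0.04 to 0.58 over the libraries and -0.03 to 0.22 within groups. Of 15620 candidate genes, the 6 most like the Zscan4 sum were Tmem92 (r = 0.951 over 18 libraries), Cd34 (0.897), Lgals6 (0.883), Pramef25 (0.876), Lgals4 (0.869) and Usp17le (0.854). Within groups these values were 0.775, 0.552, 0.797, 0.774, 0.768 and 0.876 in the same order. Because the 6 genes were chosen by r over these libraries, their likeness to the sum across groups follows from the choice. Tmem92, a transmembrane protein gene, had 0.466 ± 0.250 FPKM in Daxx-null and 4.88 ± 0.771 in wild-type retinoic acid cells, and 6.55 ± 1.55 and 2.53 ± 1.17 in Daxx-null and wild-type 2i cells. Cd34, a surface glycoprotein gene, had 1.34 ± 0.292 and 8.38 ± 0.900 FPKM in Daxx-null and wild-type retinoic acid cells, and 17.9 ± 1.23 and 5.84 ± 3.08 in Daxx-null and wild-type 2i cells (SD, n = 3 each). Tmem92, Pramef25 and Usp17le are themselves on the list of two-cell genes, and the galectin genes Lgals4 and Lgals6 overlap in position in the files, so their values may share reads.

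**Figure D4:**
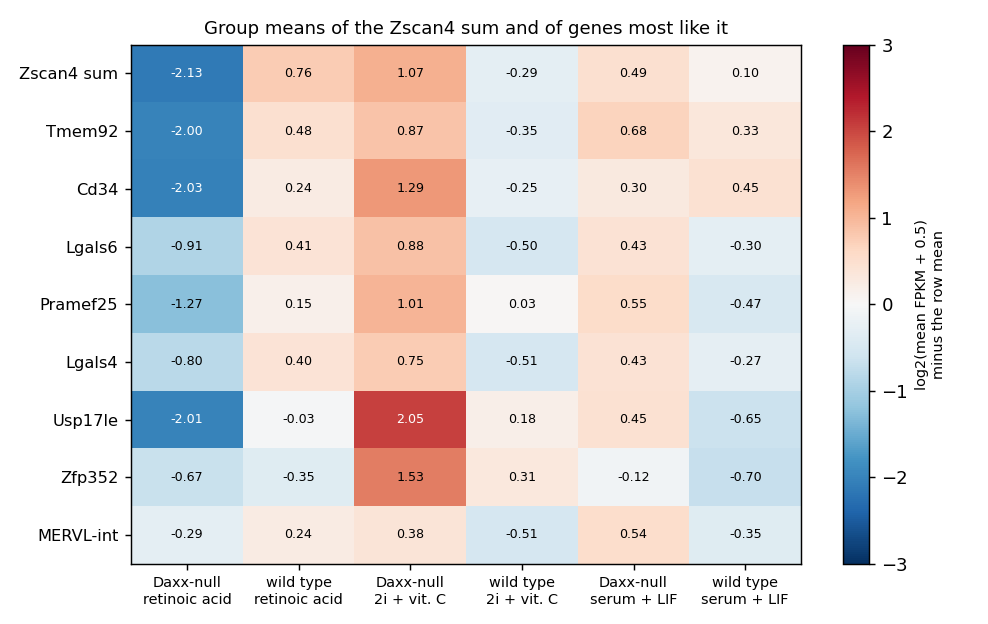
Log2(mean FPKM + 0.5) of each group minus the mean of its row (colour and printed value) for the Zscan4 sum, the 6 genes most like it, Zfp352 and the retrovirus MERVL-int (rows) in the 6 groups (columns). Daxx-null retinoic acid is the lowest group of the Zscan4 sum (-2.13) and of the 6 genes, and Daxx-null 2i the highest. The 6 genes were chosen by their correlation with the sum over these same libraries, so their shared pattern follows from the choice.

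Of 66 other genes listed for the two-cell-like state, 37 passed the filter, 12 were below it, 9 were listed at 0 and 8 were not found. In retinoic acid 18 of the 37 were lower and 0 higher in Daxx-null cells, against 2.27 and 0.222% of all tested genes, with a median log2 fold change of -1.46 against -0.05 over all tested genes (11 were lower without wild-type replicate 3). Zfp560, a zinc finger gene, had 0.621 ± 0.434 FPKM in Daxx-null and 18 ± 1.40 in wild-type cells (log2 -4.11, adjusted p = 1.5e-06), and Gm6763 had 6.78 ± 1.63 and 55.8 ± 23.6 FPKM (-2.89, adjusted p = 7.9e-04). Gm8300 (-2.91) and the deubiquitinase family gene Usp26 (-2.87) also fell. In 2i 28 of the 37 were higher and 0 lower, against 31.5 and 15.3% of all tested genes, with a median of 1.68 against 0.20 over all genes, and 21 were higher when Daxx-null replicate 2 and wild-type replicate 3 were left out together. A low gene can pass the filter through the Daxx-null 2i libraries alone, and without a filter 31 of 49 were higher. The count was 19 higher in a fit of only the 2i groups, and 21 higher and 1 lower after quantile normalization. Sp110, a nuclear body protein gene, had 18.6 ± 1.87 FPKM in Daxx-null and 1.61 ± 1.32 in wild-type 2i cells (3.48, adjusted p = 3.8e-05), and Gm5662 had 185 ± 47.0 and 22.1 ± 15.3 FPKM (3.42, adjusted p = 1.3e-04). Gm2022 (3.19) and Gm4027 (3.05) also rose. Of the 37, 16 were both higher in 2i and lower in retinoic acid, as were 157 (0.872%) of all 18002 tested genes.

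In serum the same list split, with 5 of 37 higher and 6 lower, near the 9.29 and 18.9% of all tested genes. The median was 0.15 against -0.12 over all genes. A log2 fold change above 0 was seen for 23 of the 37, and for 6889 of all 18002 tested genes. The 4 called genes of largest change were all among the lower ones. Usp26 had 2.82 ± 0.477 FPKM in Daxx-null cells and 25.6 ± 1.62 FPKM in wild-type cells (-2.98, adjusted p = 2.8e-06), and Pramef17 (-2.31), the oocyte homeobox gene Obox6 (-1.67) and Zfp560 (-1.30) also fell. The split was 3 higher and 4 lower without Daxx-null replicate 1, 1 higher and 5 lower without Daxx-null replicate 2 or 3, and 0 higher and 6 lower without wild-type replicate 3. Many of these genes, the Gm, Usp17l and Pramef genes among them, have near-identical copies of their own.

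**Figure D5:**
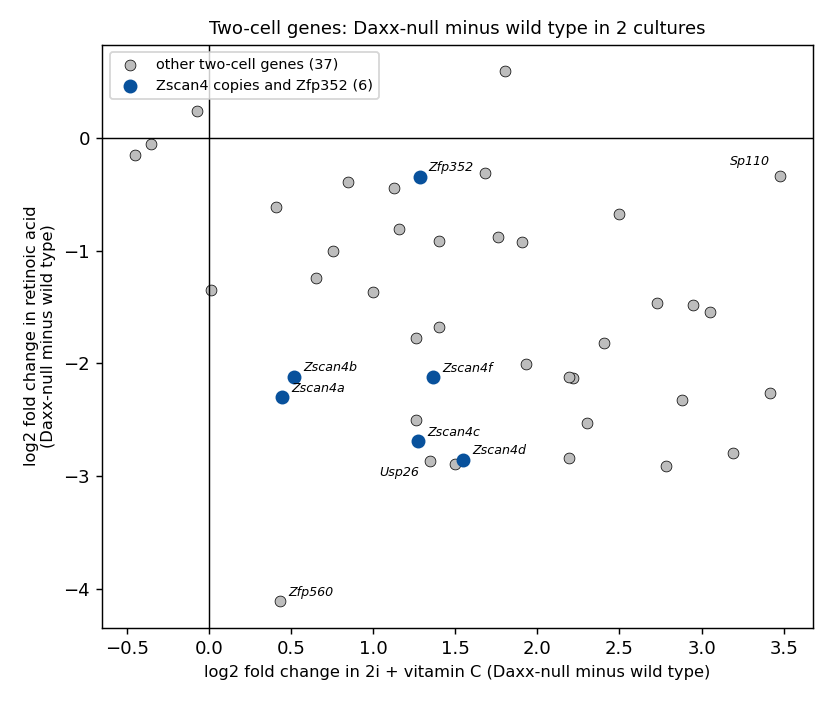
Log2 fold change of Daxx-null minus wild type in 2i (x) and in retinoic acid (y) for the 6 measured Zscan4 and Zfp352 genes (blue) and 37 other listed two-cell genes (grey), 1 point per gene. The Zscan4 copies lie at the lower right with most of the other genes, and the 2 axes share no libraries.

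Among 10 listed activators of the two-cell genes, 9 were tested. In retinoic acid 2 were lower and 0 higher, against 2.27 and 0.222% of all tested genes: Dppa2 had 2.68 ± 0.834 FPKM in Daxx-null and 11.4 ± 2.26 in wild-type cells (log2 -1.93, adjusted p = 3.0e-04), and its partner Dppa4 had 6.70 ± 1.97 and 12 ± 1.76 FPKM (-0.82, adjusted p = 0.0304). Both encode proteins that bind the Dux locus. Dppa4 lost its call, leaving 1, without replicate 1 or 2 of either genotype and with each other scaling. Dux itself, which is also counted among the two-cell genes, was near 0 in retinoic acid (0.0237 against 0.222 FPKM, not called). It was higher in Daxx-null 2i cells, at 1.25 ± 0.467 against 0.307 ± 0.268 FPKM (1.13, adjusted p = 0.0039), and in Daxx-null serum cells, at 1.47 ± 0.365 against 0.553 ± 0.114 FPKM (0.89, adjusted p = 0.0262). With wild-type means of 0.222 to 0.553 FPKM, Dux passed the filter only through these Daxx-null libraries. Its 2 calls are therefore descriptions and not independent support. In 2i 3 activators were higher and 3 lower, against 31.5 and 15.3% of all tested genes, with Dppa3, a maternal factor, at 349 ± 89.0 against 35.5 ± 19.7 FPKM (3.46, adjusted p = 4.6e-06), Gata2 at 1.27 and the Polycomb-linked gene Rybp at -0.67. In serum 2 were higher and 1 lower, against 9.29 and 18.9% of all tested genes: Dppa2 at 0.97, Dux, and the SUMO ligase gene Pias4 at -0.32. Only Dppa2 was called without Daxx-null serum replicate 2 or 3 or wild-type serum replicate 3.

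All 38 listed repressors of the two-cell genes were tested. In retinoic acid 2 were higher and 0 lower, against 0.222 and 2.27% of all tested genes, the Polycomb ligase gene Rnf2 (812 ± 26.4 against 608 ± 49.2 FPKM; 0.42, adjusted p = 0.0062) and Uhrf1, which guides maintenance DNA methylation (0.40, adjusted p = 0.0362). Uhrf1 lost its call, leaving 1, without Daxx-null replicate 1 or 2 or any 1 wild-type library. In 2i 6 were higher and 15 lower, against 31.5 and 15.3% of all tested genes (3 and 10 of the 38 in a fit of only the 2i groups), with Lin28a at 55.3 ± 3.87 in Daxx-null and 226 ± 89.3 FPKM in wild-type cells (-1.94, adjusted p = 4.9e-06), the heterochromatin protein gene Cbx3 at -0.91, and Zmym2 (1.06) and Smchd1 (1.03) higher. In serum 11 were higher and 1 lower, against 9.29 and 18.9% of all tested genes (15 and 4 in a fit of only the serum groups), led by Atf7ip (0.77), the Polycomb gene Eed (0.67), nucleolin (Ncl, 0.59) and Zfp57 (0.53).

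The repeat tables give MERVL, which the two-cell-like cells transcribe, as a share of repeat reads on a scale of its own. MERVL-int in retinoic acid was 12, 11.8 and 11.1 FPKM in Daxx-null and 15.9, 15.6 and 19.7 FPKM in wild-type libraries, a ratio of 0.681. In 2i it was 13.3, 25.9 and 17.3 FPKM in Daxx-null and 10.4, 12.4 and 7.01 FPKM in wild-type libraries, a ratio of 1.90. In serum it was 16.7, 23.3 and 23.2 FPKM in Daxx-null and 12.9, 13.4 and 7.04 FPKM in wild-type libraries, a ratio of 1.89, where the ratio of the Zscan4 sum was 1.31. The groups were apart in each culture, lower in Daxx-null cells after retinoic acid and higher in 2i and serum. In these directions 17.7, 32.3 and 19.1% of all tested genes were apart in retinoic acid, 2i and serum. The share among other repeats was not computed. In 2i the gap was narrow (13.3 against 12.4 FPKM), with Daxx-null replicate 2 the highest library and wild-type replicate 3 the lowest. Its long terminal repeat MT2_Mm had ratios of 0.793 in retinoic acid, 1.70 in 2i and 1.50 in serum.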

How the data were processed

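RNA was measured in 18 libraries in 6 groups of 3. The authors deposited FPKM per RefSeq gene and per repeat subfamily for each library, in mm9 coordinates, and a table of normalised log2 values of all libraries. HOMER 4.8, Bowtie2 2.2.6 and limma are the tools in the submitters' processing notes. No label states the total to which the FPKM were scaled. A total of 10 M (1 M is 1000000) was inferred. Depth came from low values, all of which were whole multiples of 1 counting unit (tolerance 0.1). Per the labels, RNA was enriched for polyadenylated RNA and depleted of ribosomal RNA. The sources used here do not give the strand setting.

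The tests used log2(FPKM + 0.5) and limma 3.58.1 (R 4.3.3) with a variance trend. A gene entered if 3 or more libraries had an FPKM of 1 or more, which left 18002 genes. All 18 libraries entered 1 fit with 6 group means. A call means a Benjamini-Hochberg adjusted p under 0.05 over all genes of a contrast. Each adjusted p in the text is from this fit, unless other libraries, scaling or settings are named with it. Fold changes on the log2(FPKM + 0.5) scale understate those of low genes. Sums, shares, repeats and correlations carry no test. Promoter windows, motifs and transcript windows were searched with Python 3.11.15 and Biopython 1.88. The fit was tested on simulated data. Members, lists and tests were chosen with earlier results of these data known. Named genes are all members found, the 4 called genes of largest change per list and Daxx contrast, and the 6 genes most like the Zscan4 sum, leaving out clone names. For the Tcstv sum, listed at 0, no such genes exist. Alternatives changed pseudocount, filter, scaling, fit and libraries. Among same-numbered Daxx-null and wild-type libraries, deviations from group means correlated at -0.162 to 0.154, so the numbers were not taken to pair libraries.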

Additional observations from a re-analysis of the deposited data

Results flagged for a closer look

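The 10 results below were singled out because the Daxx effect on a gene (log2, Daxx-null minus wild type) differed between 2 cultures by limma's test of the difference, at an adjusted p under 0.05 over all genes. Retinoic acid minus serum gave -2.86 for Zscan4b, -3.02 for Zscan4c, -3.75 for Zscan4d and -2.46 for Zscan4f. Retinoic acid minus 2i gave -2.74 for Zscan4a, -2.63 for Zscan4b, -3.96 for Zscan4c, -4.40 for Zscan4d, -3.49 for Zscan4f and -1.63 for Zfp352. In the comparison with 2i, Zscan4a and Zfp352 lost their calls with quantile normalization and with the normalised table, and Zfp352 lost it without Daxx-null 2i replicate 2 and wild-type 2i replicate 3. Groups of 3 libraries were not tested for a single outlying library.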

How the results depend on the processing

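Over all alternatives, 1011 of the 1138 recomputed values for single genes kept their direction and side of the threshold, 55 lost a call, 38 gained one and 34 changed sign; every reversed value was of a gene that was not called. The 5 lower Zscan4 copies after retinoic acid kept their calls under every scaling, pseudocount and fit tried, and the filter of 5, under which Zscan4b and Zfp352 are not tested, left 4. Leaving out 1 library gave counts of 3 to 5 in retinoic acid, 1 to 4 in 2i, 3 to 4 for the effect in retinoic acid against serum, 0 to 2 for wild-type 2i against serum, 1 to 3 for wild-type retinoic acid against serum and 1 to 3 for Daxx-null 2i against serum. Scaling mattered most for 2i and serum. With quantile normalization and with the authors' normalised table, the serum comparison had 3 and 2 calls among the 6 genes and the 2i comparison 1 and 1, with 1 and 1 (Zscan4b) for the effect in 2i against serum, 4 and 4 for wild-type retinoic acid against serum, and 2 and 2 for Daxx-null 2i against serum. A fit of only the groups compared gave 1 in serum, 0 in 2i, 1 for wild-type 2i, 1 for wild-type retinoic acid and 2 for Daxx-null 2i against serum. For Daxx-null 2i against serum, the count was 3 with median-ratio scaling, 3 with the chromosome shift removed, 2 without the trend, 0 with the filter of 5 and 3 without both Daxx-null 2i replicate 2, which stands apart, and wild-type 2i replicate 3, which has the lowest Zscan4 sum of its group; the filter of 5 gave 1 for wild-type 2i and 1 for wild-type retinoic acid. Without both 2i libraries none was called in 2i. For the effect in retinoic acid against 2i, 6 calls became 4 with quantile normalization, the normalised table and the filter of 5, and 5 without both 2i libraries. Among the listed activators, the serum count went to 5 and the 2i count to 2 in a fit of only the groups compared, and the retinoic acid counts of activators and repressors were 1 in 9 of 17 alternatives each.

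Values that changed sign, in log2, were as follows with quantile normalization and the normalised table: Zscan4a 0.32 and 0.29 in serum and -0.40 and -0.31 in 2i, Zscan4b -0.30 and -0.23 in 2i, and Zscan4c -0.20 and -0.19 and Zscan4f -0.57 and -0.50 in Daxx-null 2i against serum. For the effect in 2i against serum they were -0.71 and -0.60 (Zscan4a), -0.092 and -0.057 (Zscan4d), -0.11 and -0.11 (Zscan4f) and -0.37 and -0.21 (Zfp352). Zfp352 in retinoic acid was 0.064 with quantile normalization, and Zscan4a in serum was 0.035 with median-ratio scaling and 0.051 with the chromosome shift removed. Without both 2i libraries, Zscan4a was -0.38 and Zscan4b -0.014 in 2i, and the effect in 2i against serum was -0.31 for Zscan4a and -0.11 for Zscan4d. For Zscan4b this effect was -0.76, with the same sign as in the main fit (-0.23). With 1 library left out, serum values ran from -0.47 to 0.21 (Zscan4a), -0.10 to 0.70 (Zscan4c) and -0.045 to 0.68 (Zscan4f), and Zscan4a in 2i from -0.086 to 0.94. The effect in 2i against serum ran from -0.017 to 1.01 (Zscan4a) and -0.65 to 0.053 (Zscan4b), and Zscan4d in wild-type 2i against serum from -0.22 to 0.99. Zscan4b in 2i (0.10 to 0.80) and the Zscan4d effect in 2i against serum (0.14 to 1.35) kept their sign with 1 library left out. The cause of the changes of sign was not tested.

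Among all genes, the split of higher and lower calls in 2i was 5671 and 2760 as deposited, 4629 and 3947 with median-ratio scaling and 3739 and 4224 with quantile normalization, and in serum 1672 and 3406 as deposited and 2178 and 2093 with quantile normalization. The replicate block, tried although equal numbers do not pair the libraries, gave 2 calls for Daxx-null 2i against serum and left the Daxx-null against wild-type counts as they were. It brought Zscan4a into the calls for the effect in retinoic acid against serum (adjusted p = 0.0431 in limma). Low values rest on few reads, down to 4 counting units for Zscan4a and Zfp352, and intervals for counting error were not computed.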
